A study of Mus musculus with 9 samples.

Results

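B6By.C.132.54 is a congenic mouse strain, which carries DNA of the BALB/c strain (the C of its name) on the background of C57BL/6ByJ. The whole-brain hemisphere transcripts of B6By.C.132.54 were compared with those of C57BL/6ByJ, taking the 3 arrays of each strain by their titles, 6 of the 9 arrays of the series. The other 3 arrays are of BALB/cJ and served to place each difference between the parental strains. All animals were adult, untreated males of 11 ± 1 weeks, 30 per strain and 90 in all, handled in 3 batches of 10 animals per strain. No transgene or drug was involved. Each array (Affymetrix Mouse Genome 430 2.0) held RNA pooled from 10 hemispheres, left and right alternating, without the cerebellum. An n of 3 is therefore 3 pools, so variation between single animals was averaged out, and the number of arrays limits the precision. B6By.C.132.54 is one inbred line, its donor segment is not located in the sources used here, and BALB/cJ need not be the substrain that gave the segment.

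In a congenic strain, a gene inside the donor segment carries the donor's regulatory sequence, and a difference in transcript level that follows the gene's own allele is called a cis effect. Genes elsewhere are expected to carry the background allele, and where they do, they can differ through other genes, the environment or chance. Brain levels of cis-regulated genes have been used to find candidates for behavioural traits. In crosses of these 2 parental strains one such trait is alcohol preference, and Grm7, the gene for a presynaptic metabotropic glutamate receptor that inhibits transmitter release, lies on chromosome 6 and has been such a candidate.

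The largest difference of a named gene between B6By.C.132.54 and C57BL/6ByJ was in Chchd4, which encodes the oxidoreductase that drives disulfide-dependent import into the mitochondrial intermembrane space. It lies on chromosome 6 and measured 2.03-fold lower in B6By.C.132.54, close to its level in BALB/cJ. Smaller differences, of 0.18 to 0.50 on the log2 scale, lay in genes of the same stretch of chromosome 6, most of them lower in the congenic strain. None of these passed an adjusted test. With limma, 0 of 45037 probe sets (0.0%) were called between the strains at a Benjamini-Hochberg adjusted p under 0.05, and the lowest adjusted p was 0.228. Before adjustment 1751 probe sets (3.89%) had a p under 0.05, 818 higher and 933 lower in B6By.C.132.54, where chance alone would give about 2251.8. For comparison, the same limma fit called 644 probe sets (1.43%) between BALB/cJ and C57BL/6ByJ and 575 (1.28%) between B6By.C.132.54 and BALB/cJ.

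The count at the unadjusted threshold depended on the model and on single arrays. With the replicate number as a block it was 3349, 1404 of them higher, still with none called and a lowest adjusted p of 0.135 in limma. Without replicate 3 of B6By.C.132.54 it was 882, without replicate 1 it was 2759 and without replicate 2 it was 4699. The arrays of B6By.C.132.54 correlated less with each other (0.9869 to 0.9921 over all probe sets) than the arrays of C57BL/6ByJ did (0.993 to 0.9951). Median intensities lay between 15.49 and 15.99. The interquartile range of log2 values was 2.731 on replicate 3 of B6By.C.132.54 and 2.836 to 2.982 on the other 8 arrays.

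Chchd4 was measured by 1 probe set, 1417233_at. Its log2 intensities were 6.54, 6.19 and 6.44 on the B6By.C.132.54 arrays, 7.62, 7.30 and 7.32 on the C57BL/6ByJ arrays and 6.25, 6.39 and 6.13 on the BALB/cJ arrays. Every congenic array lay below every background array, and the congenic and BALB/cJ arrays overlapped. The means were 6.39 ± 0.181 and 7.41 ± 0.178 (SD, n = 3 each), a log2 difference of -1.02 (SE 0.123) with a limma adjusted p of 0.228, or 0.135 with the replicate block. The difference between BALB/cJ and C57BL/6ByJ was -1.15 and passed (limma adjusted p 0.000473), and the congenic strain differed from BALB/cJ by 0.13 (limma adjusted p 0.886). Over the other settings the log2 difference from C57BL/6ByJ stayed between -1.10 and -0.90, with adjusted p from 0.0517 to 1.0. In bulk tissue, fewer cells of a type and less RNA per cell cannot be told apart. Chchd4 has no further probe set to compare, and whether a strain difference in the sequence under its probes had a part was not tested.

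Chchd4 shares its start region with Tmem43, which encodes a protein of the inner nuclear membrane and is read in the opposite direction. Tmem43 measured 5.29, 5.52 and 5.34 in B6By.C.132.54, 5.53, 5.66 and 5.79 in C57BL/6ByJ and 5.20, 5.37 and 5.37 in BALB/cJ. The congenic arrays all lay below the background arrays, by -0.27 on the log2 scale (unadjusted limma p 0.0216, adjusted p 0.915), but a further probe set of the gene, 1439418_x_at, differed by 0.01. The region between the starts of both genes is shown because both measured lower beside each other. It is chr6:91473423-91473707 on the plus strand (RefSeq, GRCm38.p6), with the Chchd4 start at its left end, read leftwards, and the Tmem43 start at its right end. Capitals mark matches to GGGCGG on either strand and to ACTACANNT.

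Chchd4-Tmem43 start region: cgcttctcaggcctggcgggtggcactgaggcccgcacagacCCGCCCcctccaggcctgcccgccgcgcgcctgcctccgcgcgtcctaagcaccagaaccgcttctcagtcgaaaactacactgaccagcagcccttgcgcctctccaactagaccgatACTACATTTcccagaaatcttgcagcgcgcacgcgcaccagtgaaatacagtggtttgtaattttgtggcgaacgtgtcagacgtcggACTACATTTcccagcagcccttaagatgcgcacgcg

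The starts are 284 bases apart, and the 285 bases hold 26 CpG dinucleotides with a GC content of 60.7%, against a median of 52.7% over RefSeq promoter windows. GGGCGG, searched on both strands as the rest, occurred 1 time and is in 35.7% of the 32851 promoter windows. ACTACANNT, searched for after the sequence had been read, occurred 2 times and is in 4.16% of windows. The CCAAT box has no match in these letters and is in 37.4% of windows. TATAAA has none either and is in 13.6%. The E-box CACGTG, in 7.15% of windows, is not in these letters. The sequence is the C57BL/6J reference and holds no information on the BALB/c allele.

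The genes next to this pair were measured as well. Of the 5 measured genes on either side of Chchd4, Tmem43 alone reached an unadjusted limma p under 0.05. Xpc, a DNA damage sensor of nucleotide excision repair, differed by -0.09, Lsm3, a subunit of the ring that binds U6 RNA, by -0.04, and Slc6a6, the taurine transporter, by -0.20. Wnt7a, a secreted signalling ligand, differed by 0.24.

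**Figure D1:**
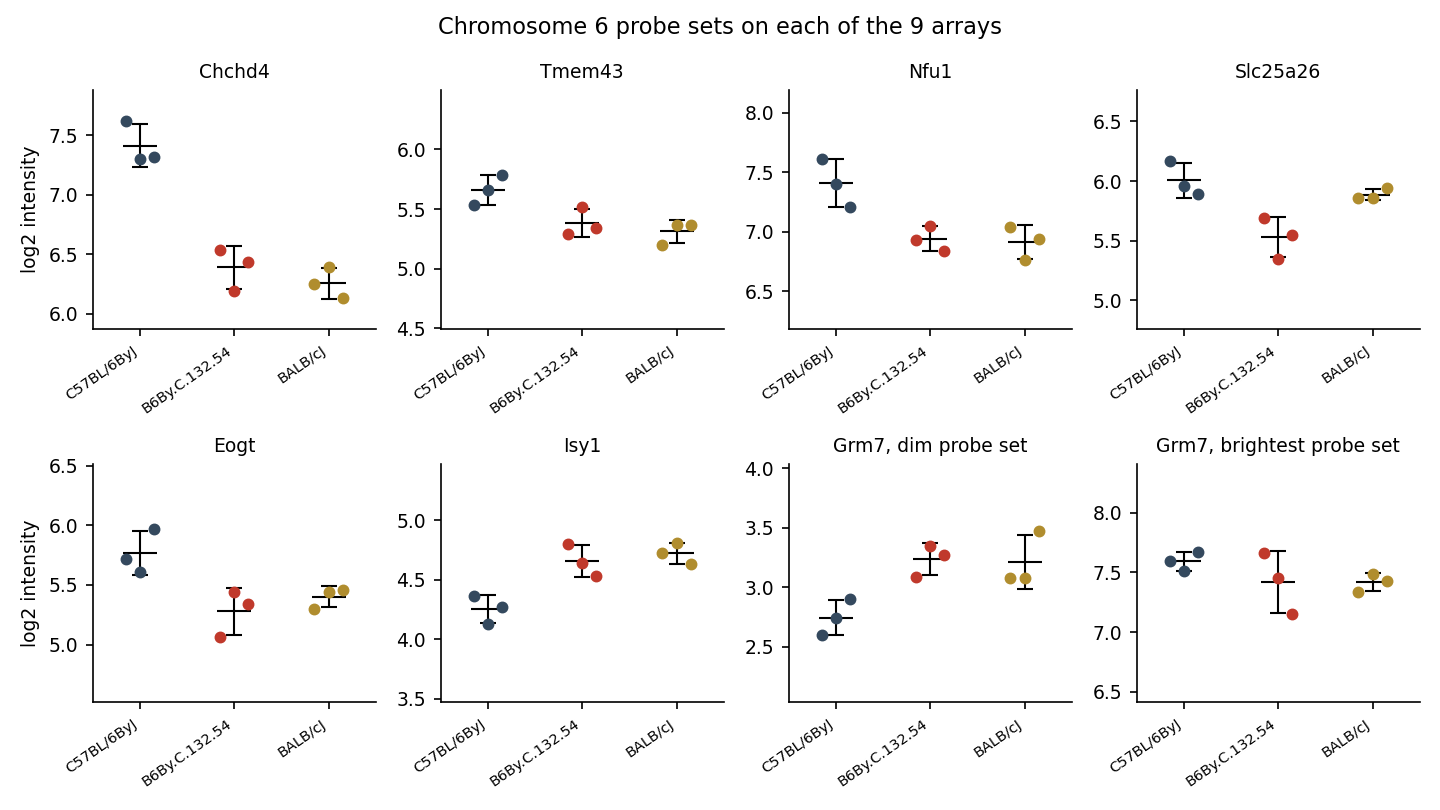
Log2 intensity (vertical axis) of 8 chromosome 6 probe sets on each array of C57BL/6ByJ, B6By.C.132.54 and BALB/cJ, points in replicate order, with the mean and SD of the 3 arrays in black; each panel spans 2 log2 units. The congenic points lie apart from the C57BL/6ByJ points in every panel but that of the brightest Grm7 probe set.

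The genes that differ between the parental strains show where along chromosome 6 the congenic strain measured like which parent. On this chromosome the parental comparison called 13 probe sets, and in B6By.C.132.54 11 of them lay nearer C57BL/6ByJ and 2 nearer BALB/cJ. The 2 were those of Chchd4 and of Isy1, a splicing factor. Isy1 probe set 1459728_at measured 4.80, 4.64 and 4.53 in B6By.C.132.54, 4.36, 4.13 and 4.27 in C57BL/6ByJ and 4.72, 4.81 and 4.63 in BALB/cJ. The congenic arrays lay above all the background arrays, by 0.40 (unadjusted limma p 0.00192), while the other Isy1 probe sets, 1458256_at and 1419357_at, differed by 0.16 and -0.11. Both comparisons with BALB/cJ share arrays with the comparison of interest. A chance deviation of the C57BL/6ByJ arrays moves the comparison of interest and that between the parents the same way.

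With the replicate block, 24 chromosome 6 probe sets were called between the parental strains, and 6 lay nearer BALB/cJ in the congenic strain. In the order of genes, those 6 followed each other without any of the other 18 between them. They belonged to Nfu1, Isy1, Chchd4, Frmd4b, Cntn6 and Grm7. The Grm7 probe set was the dim 1459532_at, below the median signal in all strains, while the brighter 1443119_at and 1458861_at differed by -0.17 and -0.02 between the parents, and Cntn6 was below that median in B6By.C.132.54 and BALB/cJ. The 8 that preceded them, from Cav2 to Nat8f4, and the 10 that followed, from Ogg1 to Rps4l, lay nearer C57BL/6ByJ. No share over all chromosomes is given for this fit. Without the block, 12 of the 644 probe sets called between the parents on all chromosomes lay nearer BALB/cJ. The congenic differences beside the parental ones were -0.47 and -0.49 for Nfu1, which assembles iron-sulfur clusters in mitochondria, -0.50 and -0.56 for Frmd4b, a scaffold protein with a FERM domain, and -0.43 and -0.42 for Cntn6, a neuronal cell adhesion molecule of the contactin family.

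Outside that run the congenic strain lay nearer C57BL/6ByJ, to different degrees. Ccdc91 differed from C57BL/6ByJ by -0.30 in the congenic strain and -0.70 in BALB/cJ, with every congenic array below the background, and the dim Zfp398 by 0.26 and 0.56. The distance was smaller at several genes with large parental differences. Rbm28, a nucleolar RNA-binding protein, had a mean of 7.43 in the congenic strain, 7.48 in C57BL/6ByJ and 6.08 in BALB/cJ. Rps4l, a ribosomal protein S4-like gene, averaged 6.64, 6.69 and 5.29 in the same order. Grin2b, an NMDA receptor subunit, averaged 6.42, 6.51 and 5.41. Fgfr1op2 averaged 6.65, 7.01 and 8.56, so that the congenic mean lay on the far side of C57BL/6ByJ from BALB/cJ. For these 4 the congenic strain differed from BALB/cJ with limma adjusted p of 0.000302, 4.58e-05, 0.00191 and 0.00025. They were chosen by a call in the parental comparison, and the fit takes its spread from all 9 arrays. Nat8f4 and Ogg1, a DNA glycosylase that removes oxidised guanine, border the run, but the probe sets called in them are dim, with means of 3.34 and 3.09 in B6By.C.132.54 against a median of 3.968 over all values. Brighter probe sets of both genes, 1420767_at and 1430078_a_at, hardly separated the parents, with differences of 0.00 and 0.09.

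**Figure D2:**
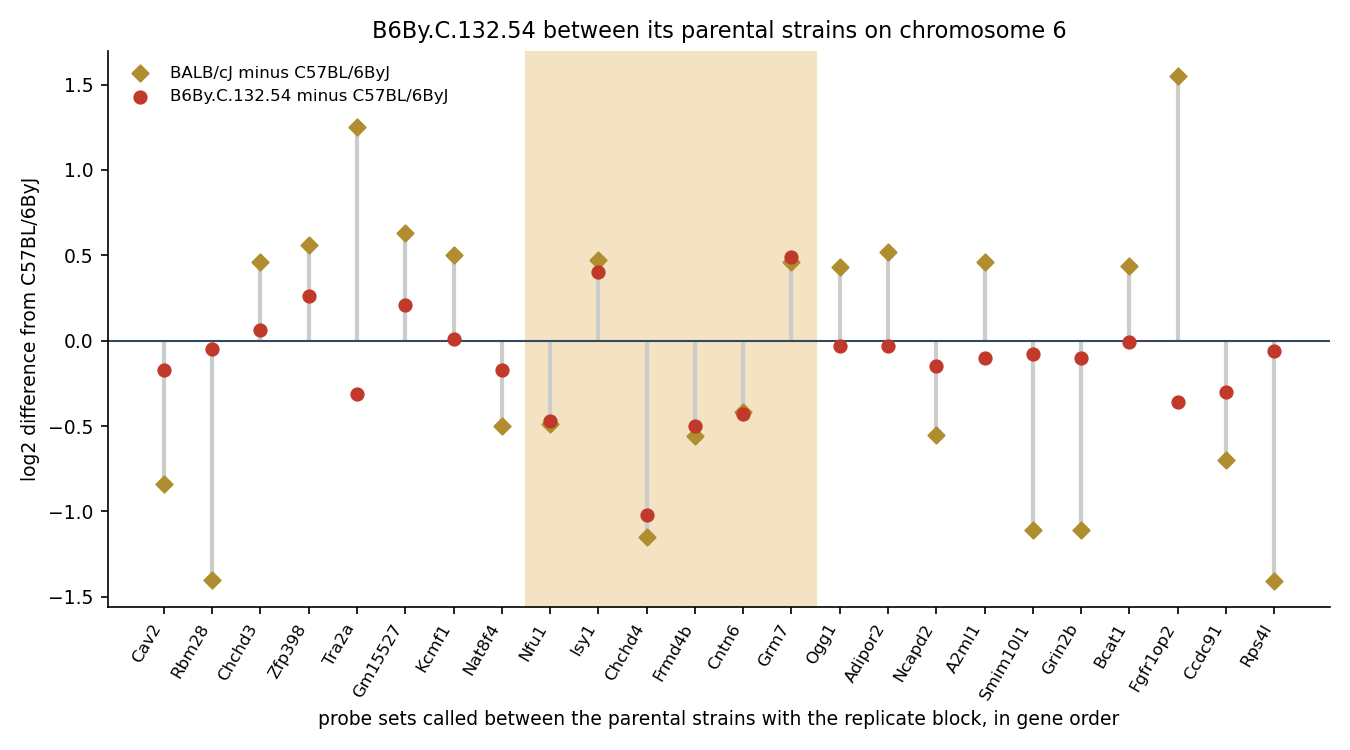
Log2 differences from C57BL/6ByJ (vertical axis, 0 is the C57BL/6ByJ mean) of B6By.C.132.54 (circles) and BALB/cJ (diamonds) for the 24 chromosome 6 probe sets called between the parental strains with the replicate block, in gene order. In the shaded run of 6 from Nfu1 to Grm7 the circles sit on or next to the diamonds; at the other 18 they lie nearer 0.

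Nat8f4 and Ogg1 are also the nearest genes on either side of Chchd4 that, without the block, were called in a comparison with BALB/cJ and lay nearer C57BL/6ByJ. Between them are 156 of the 992 genes measured on chromosome 6, with 1 probe set per gene, the brightest. Because these bounds were set from values of these arrays around Chchd4, the counts for the stretch are a description without a test. In the stretch 14 of 156 genes (8.97%) had an unadjusted limma p under 0.05, 3 higher and 11 lower in B6By.C.132.54, against 719 of the 18031 placed genes (3.99%). Leaving out Chchd4, which anchored the bounds, 13 of 155 (8.39%) remained. The rest of chromosome 6 had 27 of 836 (3.23%). With the replicate block the stretch had 27 genes (17.3%), the other genes of chromosome 6 had 6.34% and all placed genes 7.51%. Counting genes whose 3 arrays of each strain did not overlap gave 22 (14.1%) in the stretch, 16 of them below, 6.1% in the rest of the chromosome and 6.95% of all placed genes. The stretch count was 24 without replicate 2 of B6By.C.132.54 and 23 without replicate 1, beside 11.1% and 6.04% of all placed genes, and 10 (6.41%) without replicate 3, beside 1.89%. The median log2 difference in the stretch was -0.061, against -0.0164 over all genes.

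The chromosome as a whole did not stand out. It had 41 of 992 genes (4.13%) at the unadjusted threshold. The longest run of genes without a call between B6By.C.132.54 and BALB/cJ was 382 genes on chromosome 6, and runs of 371 on chromosome 15 and 332 on chromosome 2 were nearly as long. In windows of 25 consecutive genes, 5 genes at the threshold between Slc41a3 and Slc25a26 on chromosome 6 were matched on chromosomes 3, 10 and 12, and a window on chromosome 4 held 6.

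**Figure D3:**
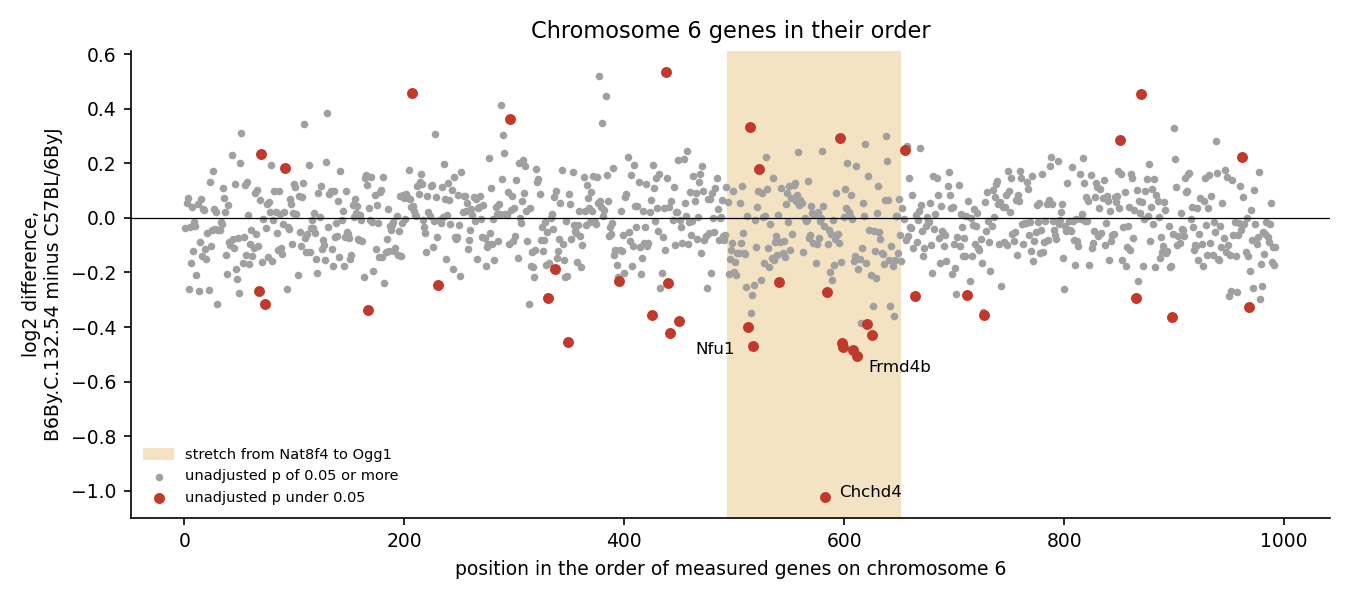
Log2 difference between B6By.C.132.54 and C57BL/6ByJ (vertical axis) for each of the 992 genes of chromosome 6 in gene order (horizontal axis), red where the unadjusted limma p was under 0.05. Chchd4 lies at -1.02, below every other gene of the chromosome, and 11 of the 14 red points in the shaded stretch are below 0.

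**Figure D4:**
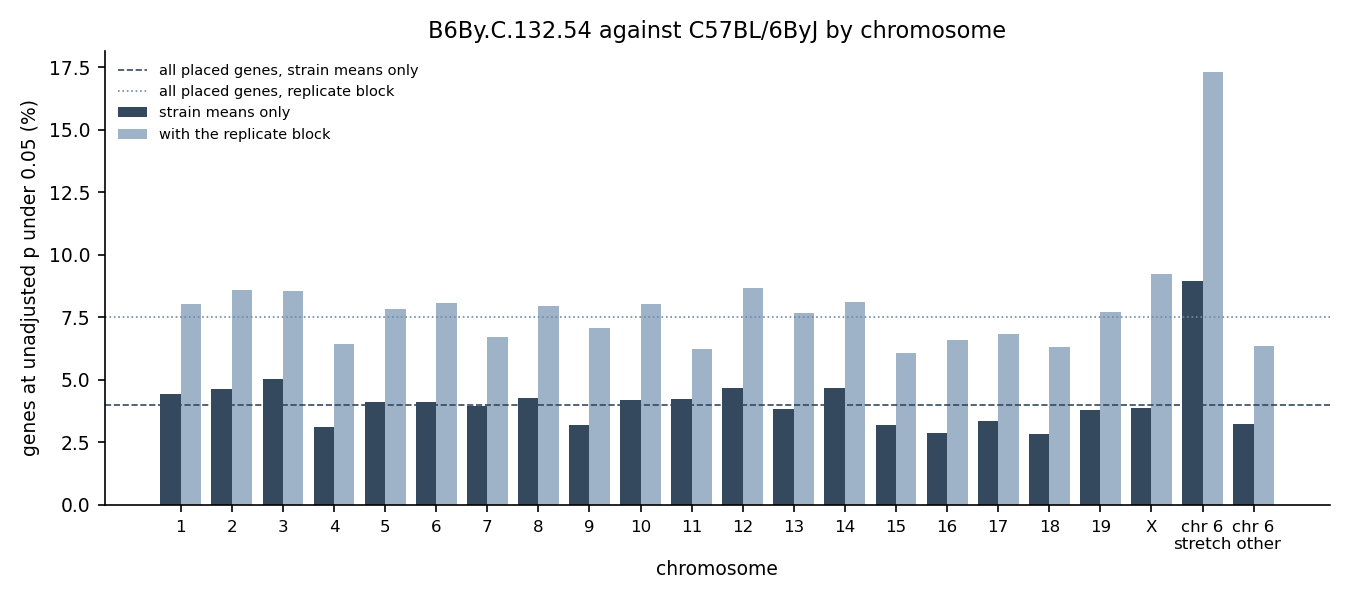
Share of measured genes at an unadjusted limma p under 0.05 (vertical axis, %) on each chromosome, without (dark) and with (light) the replicate block; dashed and dotted lines give the shares over all placed genes, 3.99% and 7.51%. The last 2 pairs of bars split chromosome 6 into the stretch around Chchd4 (8.97% and 17.3%) and its other genes (3.23% and 6.34%).

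Besides Chchd4 and Tmem43, several genes of the stretch at the unadjusted threshold had arrays that did not overlap between the strains. Nfu1 probe set 1418228_at measured 6.93, 7.05 and 6.84 in B6By.C.132.54, 7.61, 7.40 and 7.21 in C57BL/6ByJ and 7.04, 6.76 and 6.94 in BALB/cJ. The congenic arrays lay below the background arrays, and the second Nfu1 probe set, 1418229_s_at, differed by -0.38 with no overlap either. Slc25a26, the carrier of S-adenosylmethionine into mitochondria, measured 5.69, 5.35 and 5.55 in B6By.C.132.54, 6.17, 5.96 and 5.89 in C57BL/6ByJ and 5.86, 5.86 and 5.94 in BALB/cJ. With this probe set the congenic strain was below both parents, by -0.47 from C57BL/6ByJ. The other, 1453886_a_at, differed by -0.21, also without overlap, but its congenic mean of 4.18 was close to that of BALB/cJ, 4.13, and not below it.

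Of the others, Eogt encodes an enzyme that adds N-acetylglucosamine to EGF domains of secreted proteins. It measured 5.06, 5.44 and 5.34 in B6By.C.132.54, 5.72, 5.61 and 5.97 in C57BL/6ByJ and 5.30, 5.44 and 5.46 in BALB/cJ. The difference was -0.49, a further probe set gave -0.40, both without overlap of the arrays, and the last gave -0.01. Magi1, a scaffold of cell junctions, measured 5.49, 5.47 and 5.38 in B6By.C.132.54 against 5.75, 6.10 and 5.87 in C57BL/6ByJ with its brightest probe set, and 5.39, 5.30 and 5.64 in BALB/cJ. That probe set differed by -0.46 without overlap, but 1440871_at differed by 0.29 in the opposite direction, also without overlap, and the remaining 3 by 0.21, -0.07 and 0.01. Whether strain differences in the sequence under the probes had a part in such disagreements was not tested.

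Gmcl1, the germ cell-less homologue, measured 6.61, 6.84 and 6.27 in B6By.C.132.54 and 7.03, 6.95 and 6.95 in C57BL/6ByJ, lower on every congenic array, by -0.40. BALB/cJ gave 6.82, 6.78 and 6.76, a difference of -0.19 from C57BL/6ByJ, so the congenic mean of 6.57 was below both parents. Of the other 5 Gmcl1 probe sets 1 more was at the unadjusted threshold (-0.38). Frmd4b and Pdzrn3, a ubiquitin ligase with PDZ domains, overlapped between the strains (-0.50 and -0.39), and Frmd4b's other 4 probe sets differed by -0.06 to 0.11. The other Pdzrn3 probe set differed by -0.01. Ruvbl1, an ATPase of chromatin remodelling complexes, differed by -0.23 and Cntn6 by -0.43, both with overlap. BALB/cJ differed from C57BL/6ByJ by -0.04 at Ruvbl1 and -0.16 at Pdzrn3, so the congenic means were below both parents there as well. The 3 genes measured higher were Anxa4, a calcium-dependent membrane-binding protein (0.33, below the median signal in all strains), the protease gene Adamts9 (0.29, with overlap) and the gastrokine Gkn3 (0.18). At these 3 BALB/cJ was higher than C57BL/6ByJ by 0.30, 0.22 and 0.23. Other probe sets of these genes gave congenic differences of 0.06 and -0.02 (Anxa4), 0.14 and -0.16 (Adamts9) and -0.00 (Gkn3). Of the 14 genes, 9 had no overlap between the arrays of the strains, against 6.95% of all placed genes. The 14 were picked by p in the same comparison, which favours a lack of overlap, so the count adds no support.

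Grm7 lies 52 genes beyond Chchd4 and was measured by 3 probe sets, which did not move together. The brightest, 1443119_at, gave 7.66, 7.45 and 7.15 in B6By.C.132.54, 7.60, 7.51 and 7.67 in C57BL/6ByJ and 7.34, 7.49 and 7.43 in BALB/cJ. The strains overlapped, with a difference of -0.17 (unadjusted limma p 0.19), and replicate 3 of B6By.C.132.54 was the lowest of all arrays. A second probe set, 1458861_at, differed by -0.08 with overlap. The third, 1459532_at, was dim in every strain and went the other way, with 3.09, 3.35 and 3.27 in B6By.C.132.54, 2.60, 2.74 and 2.90 in C57BL/6ByJ and 3.08, 3.08 and 3.47 in BALB/cJ. Its congenic arrays all lay above the background arrays, by 0.49, with an unadjusted limma p of 0.00279 and adjusted p of 0.915, or 0.658 with the replicate block. None of the 5 measured genes on either side of Grm7 reached the unadjusted threshold, Edem1, of protein degradation in the endoplasmic reticulum, differing by -0.13 and Oxtr, the oxytocin receptor, by -0.16.

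The probe sets 1439312_at and 1442893_at had the lowest p after Chchd4, and both carry no gene name and so no place in the genome here; they were singled out after their values were seen. Probe set 1442893_at measured 4.21, 3.19 and 3.79 in B6By.C.132.54, 5.29, 5.50 and 4.91 in C57BL/6ByJ and 3.55, 3.52 and 3.36 in BALB/cJ. The difference of -1.50 (SE 0.223, limma adjusted p 0.526, or 0.476 with the replicate block) was larger in size than that of Chchd4, but it ran from -1.74 to -0.86 over the other settings, and the probe set was below the median signal in B6By.C.132.54 and BALB/cJ. Besides it and Chchd4 none of the 45037 probe sets differed by 1 or more. Probe set 1439312_at measured 4.52, 4.42 and 4.66 in B6By.C.132.54, 5.12, 5.49 and 5.44 in C57BL/6ByJ and 4.66, 4.60 and 4.39 in BALB/cJ. Its difference was -0.82 with a limma adjusted p of 0.526, and like the other it lay at the BALB/cJ level.

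Across the genome few of the parental differences were shared by the congenic strain. Of the 644 probe sets called between the parents 12 lay nearer BALB/cJ in B6By.C.132.54, and of the 243 that differed by 1 or more, 2 did so, Chchd4 and 1442893_at. Apart from chromosome 6 and the 5 unnamed probe sets, the 12 were Zw10 and Nxpe4 on chromosome 9, Fam204a on 19, Arrdc1 on 2 and Slc35a5 on 16, with differences of 0.38, -0.49, -0.57, 0.27 and -0.30. Nxpe4 and Slc35a5 lay about midway between the parents, with 0.536 and 0.548 of the parental difference. Fam204a and Slc35a5 were below the median signal in B6By.C.132.54 and BALB/cJ. Zw10, a kinetochore protein, and Nxpe4 lie close together, with 9 genes between them. Nxpe4 measured 5.43, 4.90 and 5.09 in B6By.C.132.54, 5.66, 5.67 and 5.56 in C57BL/6ByJ and 4.78, 4.81 and 4.56 in BALB/cJ, below the background on every array. The Zw10 probe set is dim in all 3 strains. The flanking genes Scn4b, a sodium channel subunit, and 1110032A03Rik lay nearer C57BL/6ByJ, and 3 of the 55 genes between these (5.45%) were at the unadjusted threshold, near the 3.99% of all placed genes. They were Nxpe4 itself, Pts (-0.33), an enzyme of tetrahydrobiopterin synthesis, and Apoa1 (0.25), an apolipoprotein.

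By lowest p among genes with a mean at or above the median signal in at least 1 of the compared strains, the 10 lower genes in B6By.C.132.54 were Chchd4, Fam76b, Col19a1, Slc25a26, Pisd-ps3, Dnajc9, Tmem169, Magi1, Eogt and Nfu1. Of these, 5 lie on chromosome 6, all 5 in the stretch around Chchd4, and none of the 10 higher genes is placed on that chromosome. Pisd-ps3 among the lower genes and Gm19439 among the higher ones have no place in the genome here. The stretch holds 156 and chromosome 6 holds 992 of the 18031 placed genes. The 5 include Chchd4, which anchored the stretch, and all are among its 14 genes counted above, so they are no separate evidence. Over all genes 376 of 18194 (2.07%) were lower and 350 (1.92%) higher at the unadjusted threshold, 726 in all (3.99%). Fam76b measured 6.31, 6.35 and 6.21 against 6.63, 6.71 and 6.82 in C57BL/6ByJ, and lay at 6.50, 6.50 and 6.54 in BALB/cJ, so that the congenic strain was below both parents with this probe set. Its other probe sets differed by -0.07 and -0.02, with overlap. Col19a1, a collagen gene, was below both parents as well (-0.44), but its other probe sets differed by -0.06 and -0.03. Dnajc9, a histone co-chaperone, differed by -0.35 with its 1 probe set. Pisd-ps3, a pseudogene that may share probes with its parent gene, lay between the parents with 8.87, 9.02 and 8.87 against 9.45, 9.39 and 9.23 in C57BL/6ByJ and 7.84, 7.91 and 7.64 in BALB/cJ.

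The 10 higher genes were Ephb4, Gm19439, Hoxb5os, Ppp1r32, 1810013D15Rik, Amacr, Gm33409, Allc, Fibcd1 and 1600010M07Rik, with differences of 0.31 to 0.60. Ephb4, a receptor for ephrin-B2 in vessels, measured 4.74, 4.60 and 4.76 in B6By.C.132.54 and 4.34, 4.27 and 4.34 in C57BL/6ByJ, above the background on every array. Amacr, a racemase of branched fatty acid oxidation, measured 4.64, 4.56 and 4.64 against 4.33, 4.22 and 4.35, also without overlap. Fibcd1 reached the median signal in B6By.C.132.54 alone, at a mean of 3.97 against 3.59 in C57BL/6ByJ, so the filter itself favoured its direction. Over the 10 genes the congenic arrays lay between 3.86 and 6.00. The brightest probe set of each gene had no overlap between the strains, against 6.95% of all placed genes. The 10 were picked by low p in this same comparison, which favours a lack of overlap, so this adds no support. Adjusted p was 0.915 in limma for all 20 but Chchd4.

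Partners of the named genes were read from gene lists by counts and medians, with no test of a list. The mitochondrial disulfide relay comprises Chchd4, its reoxidising partner Gfer and small substrate proteins that are folded on import. The list was made around Chchd4. Of the other 23 measured genes 1 was at the unadjusted threshold (4.35%, against 3.99% of all genes), Cmc1, an assembly factor of cytochrome oxidase (-0.28), whose second probe set differed by 0.04. The median with Chchd4 was -0.055. Gfer differed by -0.03, Aifm1, which binds the Chchd4 protein, by -0.14, and the substrates Cox17 and Timm9 by -0.11 and -0.08. Among metabotropic glutamate receptors and Homer partners none of 11 was at the threshold, the median was -0.0347, and Grm5, the postsynaptic group I receptor, differed by -0.26 and Homer1, its scaffold, by 0.08.

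None of 14 ionotropic glutamate receptor genes and none of 14 GABA genes were at the threshold (medians -0.104 and -0.0933). Of 18 genes of alcohol and aldehyde metabolism, 1 was lower, the fatty aldehyde dehydrogenase Aldh3a2 (-0.31), with a median of -0.0947. Of 17 immediate early genes, which respond to neuronal activity within minutes to hours, 1 was lower, Btg2 (-0.39, without overlap). Both counts stand beside 2.07% of all genes lower at the threshold. With the replicate block 5 of the 17 were lower, against 4.33% of all genes. The median was -0.0571. The interferon response list had a median of 0.125, or 0.0512 with log2(value + 16), with 9 of 16 genes at or above the median signal. At the unadjusted threshold 2 of the 16 were higher, against 1.92% of all genes. They were the antiviral transcription factor gene Irf7 and the membrane protein gene Ifitm3 (0.28 each). Irf7 overlapped between the strains and was below the median signal in C57BL/6ByJ and BALB/cJ. Ifitm3 measured 6.67, 6.98 and 6.71 in B6By.C.132.54 and 6.49, 6.63 and 6.42 in C57BL/6ByJ, without overlap. All list medians are to be read against -0.0164 over all genes. After quantile normalization the medians of the relay list (0.013) and of the metabotropic list (0.0183) were above 0.

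The marker genes of brain cell types checked the tissue. All 12 neuron markers were above the median signal, and each measured lower in B6By.C.132.54, with a median of -0.127 and none at the unadjusted threshold. Their mean per array ran from 9.73 to 9.98 in B6By.C.132.54 and from 9.92 to 10.04 in C57BL/6ByJ, so the strains overlapped. This shift moved with replicate 3 of B6By.C.132.54: without it the median was -0.0391, and after quantile normalization -0.0505. The GABA genes, 13 of 14 below 0, had a median of 0.00547 without that array, and the immediate early genes 0.0229. In the stretch around Chchd4 the values without that array were -1.05 for Chchd4, -0.42 for Nfu1, -0.48 for Slc25a26, -0.52 for Eogt and -0.42 for Magi1. They were -0.25 for Gmcl1, -0.33 for Cntn6 and -0.31 for Pdzrn3, and -0.04 for the brightest Grm7 probe set against 0.47 for the dim one. So the first group kept its size without the array, and the brightest Grm7 value came nearer 0.

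Of the other markers, medians were -0.085 for astrocytes, 0.0507 for microglia, -0.0952 for oligodendrocytes, -0.0454 for their precursors and -0.117 for endothelial cells and pericytes. Without replicate 3 of B6By.C.132.54 these were -0.0241, -0.000189, -0.0191, -0.066 and -0.0947 in the same order. Members at the unadjusted threshold were P2ry12 of microglia (-0.25), Opalin of oligodendrocytes (-0.31), Pdgfra of precursors (-0.30), and Abcb1a and Rgs5 of vessels (-0.26 and -0.31), all lower. Over all genes 2.07% were lower at that threshold. Opalin and Abcb1a overlapped between the strains, and P2ry12 went against the sign of its list median. Further probe sets gave 0.03 for Opalin, -0.03 for Pdgfra, -0.09 for Abcb1a and -0.14 to -0.19 for Rgs5. Among cell types or regions the dissection might add, the choroid plexus list had a median of -0.0251 with Kl lower (-0.50), the meningeal list 0.0768 (0.0197 without that array), the blood list -0.00697 with Cd3e higher (0.23) and the pituitary list 0.0183 with Tshb higher (0.31). Of 10 cerebellum markers 4 were at or above the median signal, and the granule cell genes Gabra6 and Barhl1 were dim in all strains, at 0.31 and 0.30 above C57BL/6ByJ, with a list median of -0.0407 (0.0663 without that array). After quantile normalization the medians of the precursor (0.00776), cerebellum (0.0165) and pituitary (-0.0103) lists had the opposite sign. The part of these lists in the differences of single genes was not tested.

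**Figure D5:**
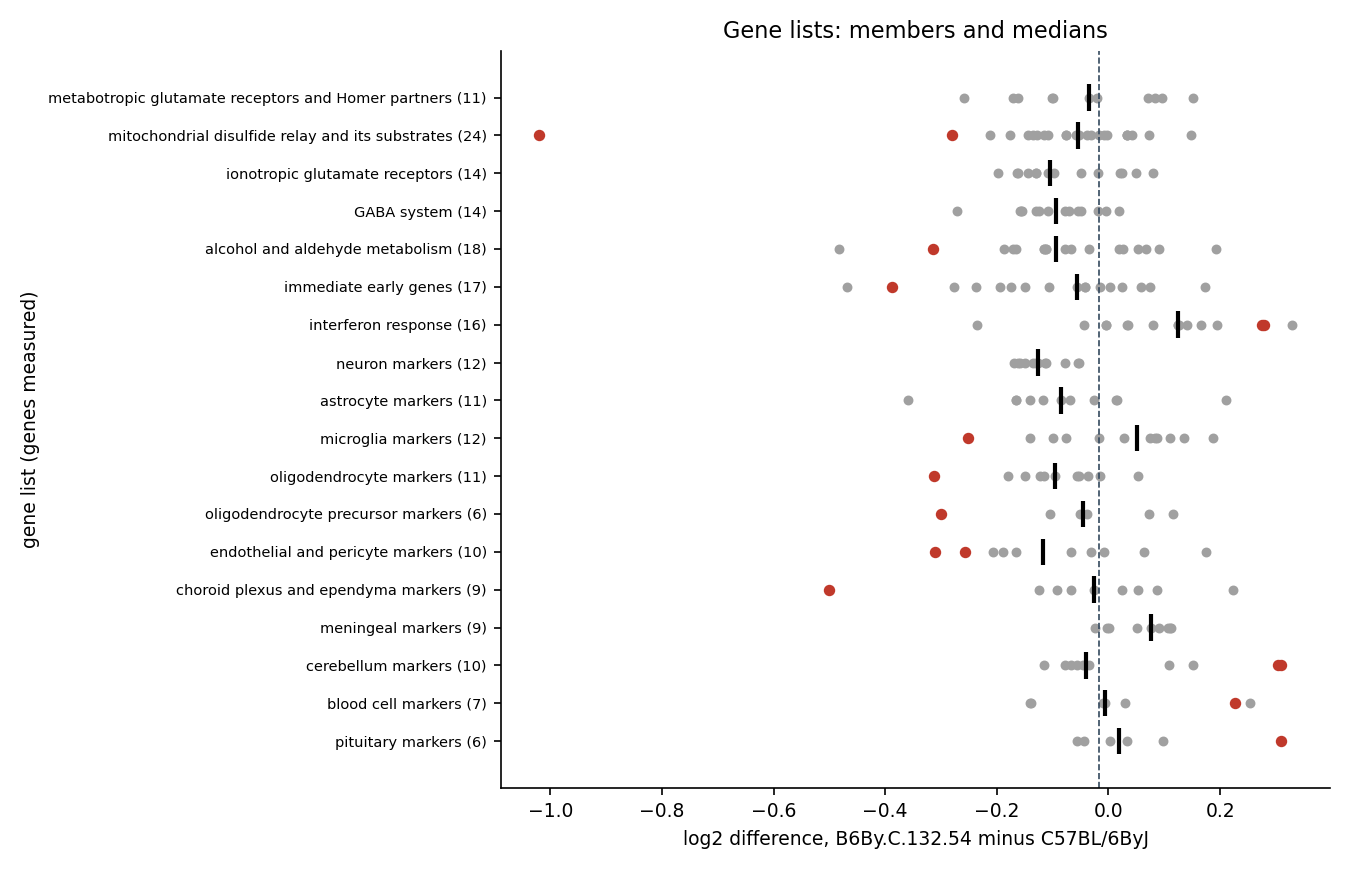
Log2 difference between B6By.C.132.54 and C57BL/6ByJ (horizontal axis) for each member of 18 gene lists (rows, number of genes measured in brackets), red where the unadjusted limma p was under 0.05; black bars are list medians and the dashed line is the median over all genes, -0.0164. Chchd4 stands alone at -1.02, and no list median lies beyond -0.127 or 0.125.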

How the data were processed

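Per the labels, total RNA was extracted with Trizol and biotin-labelled cRNA was prepared from 7 µg. The deposited table holds linear probe set intensity values, 1 column per array. GCOS and RMA are listed, with no version, in the submitters' processing notes, and how the authors scaled or centred the values is not given in the sources used here. The 64 control probe sets were left out and log2 was taken, with no further normalization. Of the values, 38.2% of probe sets have 1 value on 2 or more of the 6 arrays of the compared strains.

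With limma 3.58.1 (R 4.3.3), strain means were estimated over the 9 arrays together, with 6 residual degrees of freedom, a two-sided moderated test and Benjamini-Hochberg adjustment over 45037 probe sets. Of these 34945 carry 1 gene name in the platform annotation, 932 several and 9160 none, and 34741 were found in RefSeq (GRCm38.p6), used for gene order. A gene was read from its probe set with the highest mean. The fit was tested on simulated data.

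Replicate numbers, which the labels do not tie to the 3 batches, were taken as the block. Deviations of same-numbered B6By.C.132.54 and C57BL/6ByJ arrays from their strain means correlated at 0.542, 0.147 and 0.266. Differently numbered pairs ran from -0.458 to 0.153. The highest of these was replicate 2 of B6By.C.132.54 with replicate 3 of C57BL/6ByJ, so the pairing is not clear for replicate 2. Both fits are given. Other alternatives were the 6 arrays alone, quantile normalization, array medians removed, log2(value + 16), dim probe sets left out, a variance trend, each array left out in turn and gene medians.

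Named are the 10 genes of lowest p in each direction, chromosome 6 genes called between the parental strains with the congenic strain nearer BALB/cJ, genes elsewhere called at a difference of 1 or more and nearer BALB/cJ (none had a name), Grm7 and Chchd4, list members at an unadjusted p under 0.05, and others named as examples. Members and lists were chosen with earlier results of these data known.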

Additional observations from a re-analysis of the deposited data

How the results depend on the processing

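None of the 17 refits with limma called a probe set in the comparison of the congenic strain with its background, where 1751 were at an unadjusted p under 0.05. That unadjusted count was 3349 with the replicate block, 739 with dim probe sets left out, and 882 to 4699 with each array left out in turn. The share of these that were higher, 46.7%, was 32.7% with log2(value + 16) (592 higher, 1220 lower) and 21.9% without dim probe sets (162 and 577). The chromosome 6 probe sets called between the parental strains and nearer BALB/cJ, 2 as reported, were 6 with the replicate block, 1 with array medians removed, 1 with log2(value + 16), 1 with a variance trend and 1 to 3 with each array left out; fits of 6 arrays hold no BALB/cJ and give no value. The stretch count, 14, was 27 with the replicate block and 10 to 24 with each array left out; its alternatives, and those of probe sets outside the naming rule, were chosen after seeing the data. For Isy1 the median over the gene's probe sets gave 0.40, which is the value of 1459728_at, the middle probe set, against -0.11 for the brightest, 1419357_at. Of 324 list medians under alternatives 17 moved beyond the spread. Values near the median signal have little range above background, and 3 arrays a strain limit what could be called.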
